A study of Mus musculus with 1094 samples.

Results

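The cells described here are newborn neurons of the mouse dorsal cerebral cortex at embryonic stage E16.5. They were taken by their label alone, as every cell labelled newborn neuron (NBN) at that stage, and they number 63 of the 1094 cells of the series. They came from C57Bl/6 wild-type female mice carrying the Tbr2::GFP reporter, in which green fluorescent protein marks cells that express or recently expressed Tbr2 (Eomes). The same reporter, strain, genotype and sex are given for both groups used for comparison, 70 NBN at E18.5 and 89 basal progenitors (BP) at E16.5. Cells positive for the reporter were sorted, captured singly on Fluidigm C1 arrays, amplified with SMARTer chemistry and sequenced from Nextera XT libraries as single reads. How NBN were separated from BP within the sort is not given in the sources used here. The labels name no animals, litters or captures. Each stage of each population is therefore treated as 1 library, and stage cannot be told apart from capture. Cells of 1 library are not replicates, so no difference between libraries was tested.

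Excitatory neurons of the cortex are born from radial glia directly or through Tbr2-positive basal progenitors, and then migrate outwards past older neurons. Deep layer neurons, which send axons to the thalamus, brainstem and spinal cord, are born first, and upper layer neurons, many of which project across the corpus callosum, are born later. A small set of transcription factors keeps these fates apart: Tbr1 and Sox5 in layer 6 neurons and Fezf2 and Bcl11b (Ctip2) in layer 5 neurons, with Cux1 and Cux2 marking upper layers. Newborn neurons may hold transcripts of several of these factors before they settle on one fate.

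The promoters of the postmitotic neuron factor Neurod6 and of 3 deep layer factors are shown because the layer comparison turns on these genes. Each is the RefSeq window of GRCm38.p6 from 250 bases before to 50 bases after an annotated start, written 5′ to 3′ on the strand of the gene. Capitals mark matches to CANNTG, the E-box core recognised by basic helix-loop-helix factors such as Neurod6 and Neurod2, searched on both strands.
Neurod6 (chr6:55681214-55681513, minus strand): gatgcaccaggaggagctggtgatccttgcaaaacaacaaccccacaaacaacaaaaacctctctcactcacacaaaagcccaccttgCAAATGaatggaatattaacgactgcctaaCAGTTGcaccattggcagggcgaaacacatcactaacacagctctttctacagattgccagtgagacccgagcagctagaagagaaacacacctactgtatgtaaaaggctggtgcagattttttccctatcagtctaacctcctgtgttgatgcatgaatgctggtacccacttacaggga
Tbr1 (chr2:61804203-61804502, plus strand): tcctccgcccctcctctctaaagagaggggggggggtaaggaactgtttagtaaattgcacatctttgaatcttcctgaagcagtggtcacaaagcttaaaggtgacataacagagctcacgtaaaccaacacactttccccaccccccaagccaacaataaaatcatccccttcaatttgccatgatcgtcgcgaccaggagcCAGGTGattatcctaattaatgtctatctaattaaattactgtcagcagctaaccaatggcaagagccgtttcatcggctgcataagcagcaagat
Bcl11b (chr12:108003365-108003664, minus strand): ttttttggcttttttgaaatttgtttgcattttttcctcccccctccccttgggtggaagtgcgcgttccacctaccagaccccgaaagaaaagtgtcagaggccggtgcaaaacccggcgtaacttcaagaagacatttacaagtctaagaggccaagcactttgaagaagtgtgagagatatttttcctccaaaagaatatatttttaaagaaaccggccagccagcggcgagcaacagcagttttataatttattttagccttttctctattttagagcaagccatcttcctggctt
Sox5 (chr6:143947057-143947356, minus strand): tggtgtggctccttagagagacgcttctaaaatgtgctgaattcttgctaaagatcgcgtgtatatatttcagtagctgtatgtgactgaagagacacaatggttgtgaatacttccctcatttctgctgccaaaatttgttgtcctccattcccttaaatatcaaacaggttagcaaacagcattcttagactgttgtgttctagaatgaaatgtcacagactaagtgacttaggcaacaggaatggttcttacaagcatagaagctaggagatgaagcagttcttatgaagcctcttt
The Neurod6 window held 2 matches and the Tbr1 window 1, while these letters were not found in the Bcl11b and Sox5 windows. The core is short, and 72.3% of all 32851 promoter windows of this length held it. The matches are descriptions of sequence, and no binding was measured.

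Values are TPM, each gene's share of a cell's transcripts corrected for transcript length, so levels can be set side by side between genes. TPM keep no read depth, so sequencing depth is unknown. As a stand-in, each E16.5 cell had 1311 to 7861 genes at 1 TPM or more, with a median of 5764. The E18.5 cells had a median of 4635.5, and 4 of them had under 1000 genes. The BP cells had a median of 4303, and 10 of them were under 1000. A near-empty cell concentrates its TPM in a few genes and can set a library mean. Results that such cells decide are therefore given with and without them. Across 8703 genes at a mean of 10 TPM or more over both NBN libraries, the median share of cells in which a gene reached 1 TPM was 47.6% at E16.5 and 35.7% at E18.5. This gap in detection is the background against which shares of cells are read below. In bulk means over a library, fewer expressing cells and less RNA per cell cannot be told apart.

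Most E16.5 cells carried transcripts of cortical excitatory neurons. Neurod6, a helix-loop-helix factor of postmitotic cortical excitatory neurons, was at 1 TPM or more in all 63 cells and at 10 TPM or more in 61. Its lowest value was 2.02 TPM, its median 1847 and its highest 5090.2. Its mean of 1963 TPM was not particular to newborn neurons. BP had means of 992 TPM at E16.5 and 2558 TPM at E14.5, and neural stem cells at E15.5 had 2059 TPM. Mef2c, an activity-regulated factor of maturing neurons, was detected in 59 of 63 cells at a median of 331 TPM and a highest value of 2193 TPM. Against E18.5, Neurod6 differed by 0.07 in log2 mean, and Mef2c by -1.57 with all cells and -0.16 without the near-empty E18.5 cells, 1 of which listed it at 59650 TPM. Averaged as log2 values over cells, Mef2c was higher at E16.5, by 0.91. Both were high in most E16.5 cells, and the few low cells form a thin tail in the plot of identity and layer genes by cell. Tbr1 was detected in 47 cells and Bcl11b in 42, at medians of 15.0 and 15.2 TPM, so these markers covered only part of the library. Neurod2, a close relative of Neurod6, was detected in 60 cells at a median of 87.5 TPM. Dcx, a microtubule protein of migrating neurons, was detected in 63 cells at a median of 413 TPM.

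In 8 of 63 cells, 3 or more markers of some other cell type reached 10 TPM, against 7 of 70 at E18.5. Single markers at lower levels were common, such as the interneuron factor Dlx6 at 1 TPM or more in 60 of 63 cells. Of the 8, 1 cell held all 6 meningeal markers at a summed 6384 TPM with Neurod6 at 3.25 TPM. A pair of cells held 6 and 7 of 8 Cajal-Retzius markers, at summed levels of 2395 and 1758 TPM, and their Neurod6 was 2.02 and 645 TPM. The remaining 5 reached the mark on the interneuron list, whose defining vesicular transporter Slc32a1 was listed at 0 in every E16.5 cell. Summed over the 11 interneuron genes, a cell had 0.478 to 10130 TPM with a median of 15.2. Over the 6 meningeal genes the range was 0 to 6384 TPM with a median of 1.53. The part of these cells in the results below was not tested beyond the values given without them.

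**Figure D1:**
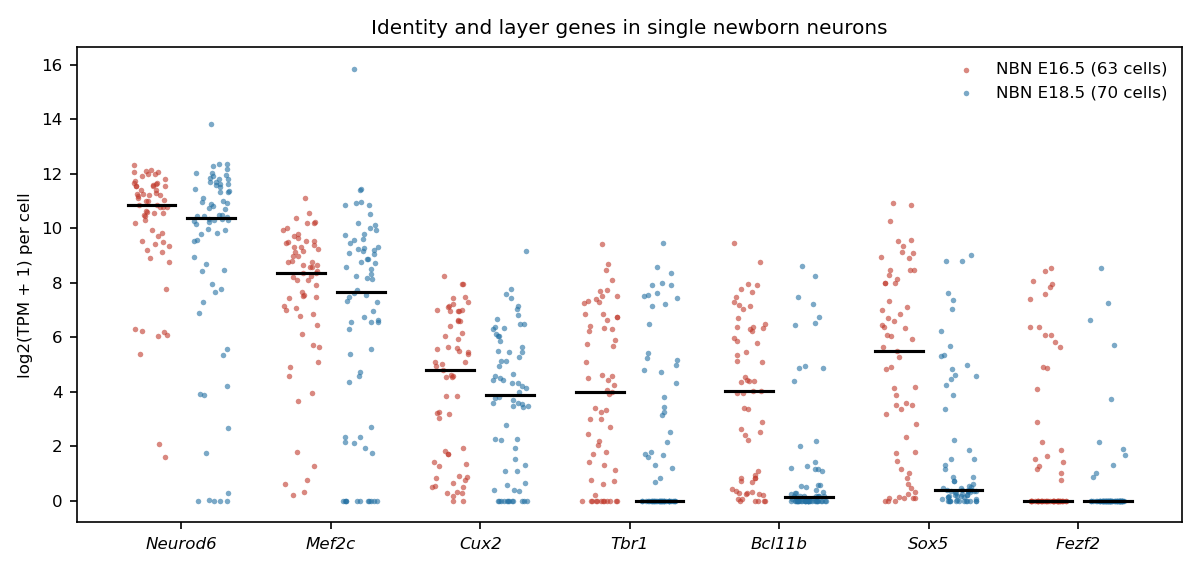
Each point is 1 cell, the vertical axis is log2(TPM + 1), and the bar is the median of the library. Neurod6, Mef2c and Cux2 overlap closely between the 63 cells of E16.5 and the 70 of E18.5, while Tbr1, Bcl11b, Sox5 and Fezf2 have more E16.5 cells above the base line.

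Deep layer transcripts were spread over more cells at E16.5 than at E18.5. Sox5, which restrains the corticospinal programme in layer 6 and subplate neurons, ran from 0 over a median of 44.6 to 1936 TPM at E16.5, and from 0 over 0.31 to 515 TPM at E18.5. The distributions overlap, but the middle E16.5 cell lies above most E18.5 cells. Sox5 was at 1 TPM or more in 50 of 63 cells (79.4%, exact 95% interval 67.3 to 88.5) and, without the near-empty cells, in 24 of 66 (36.4%, 24.9 to 49.1). These intervals cover counting error over the cells of 1 library only. The library means were 209 and 32.7 TPM, a difference of 2.64 on the scale of log2(mean TPM + 1). This scale compresses the change of low genes.

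Bcl11b, the zinc finger factor of subcerebral projection neurons, had a median of 15.2 and a highest value of 701 TPM at E16.5, against 0.10 and 387 TPM at E18.5. It was detected in 42 of 63 cells (66.7%, 53.7 to 78.0) at E16.5 and in 19 of 66 (28.8%, 18.3 to 41.3) at E18.5 without the near-empty cells. Its mean was 62.3 TPM at E16.5 and 20.4 TPM at E18.5, a log2 difference of 1.57. Fezf2, which acts upstream of Bcl11b in layer 5, was detected in 25 of 63 cells (39.7%) at E16.5 and in 10 of 66 (15.2%) at E18.5 without the near-empty cells, and its log2 difference was 1.78. In these cells Fezf2 was the rarer of the pair at both stages.

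Tbr1, a T-box factor required for layer 6 identity, differed in spread rather than in mean. It reached 1 TPM in 47 of 63 cells (74.6%, 62.1 to 84.7) at E16.5 and in 32 of 66 (48.5%, 36.0 to 61.1) at E18.5 without the near-empty cells. Its highest cell was nearly the same in both, 695 and 698 TPM, and the means of 70.3 and 50.4 TPM differed by 0.47 log2. More cells held Tbr1 at the earlier stage, and the top level was alike. Within the E16.5 library, the log2 levels of Tbr1 and Bcl11b had Pearson correlations with the number of genes per cell of 0.08 and 0.06 over 63 cells, and Sox5 one of -0.20. Over the 70 cells of E18.5 these were 0.18, 0.13 and 0.18, with Spearman values of 0.17, 0.13 and 0.38. Each set is a description over cells that share 1 library.

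Detection was higher at E16.5 for many genes, and the layer lists are read against that background. Of 8703 genes at a mean of 10 TPM, 14.7% were detected in a share of cells at least 20 percentage points higher at E16.5, and 10.6% when the near-empty cells were left out. Among 8 layer 6 genes at that level, 3 passed this mark with or without those cells, namely Tbr1, Sox5 and Hs3st4. Among 8 layer 5 genes, Bcl11b and Fezf2 passed it in both ways, and Ldb2 only with the near-empty cells kept. None of 15 upper layer genes passed it in either way. The median upper layer gene was detected in a share 2.86 points higher at E16.5, against 14.4 points for layer 6 genes, 9.52 for layer 5 genes and 9.37 for all genes. The median layer 5 gene was thus close to the background, and the gap lay in single factors.

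On mean levels, 23% of 13279 genes were higher at E16.5 by more than 1 log2 unit and 14.9% were lower, with a median over all genes of 0.22. These are 3060 and 1982 genes. Quantile normalization gave 2481 and 2382, and averaging log2 values over cells, which weighs detection more than level, gave 2156 and 34. Of 9 layer 6 genes, 3 were higher (Sox5, Zfpm2 and Hs3st4) and 1 was lower (Rprm, -1.06, but 0.16 when log2 values were averaged over cells), with a median of 0.44. Of 9 layer 5 genes, 5 were higher (Bcl11b, Fezf2, Pcp4, Crym and Otx1) and none lower, with a median of 1.57. Averaging log2 values over cells gave a layer 5 median of 0.64, with 3 of 9 higher, against 0.35 for all genes. The counts on mean levels were the same without the near-empty cells. Without the cells holding markers of another type, layer 6 had the same counts and layer 5 had 6 higher, with Ldb2 as the sixth.

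Several of these means rested on few cells. Hs3st4, a heparan sulfate sulfotransferase used as a layer 6 marker, was detected in 28 cells at up to 1445 TPM, and its difference was 2.61. Zfpm2 (Fog2), a zinc finger cofactor of corticothalamic neurons, was detected in 11 cells, 1 of them at 3987 TPM. Its difference of 5.03 became 2.94 when the highest cell of each library was left out. Pcp4, Crym and Otx1 were detected in 10, 5 and 13 cells, with differences of 2.86, 2.07 and 3.82. Rprm, a layer 6 marker, was detected in 15 cells at E16.5 and 14 at E18.5. Ntsr1, the neurotensin receptor of corticothalamic neurons, did not differ in mean (33.7 and 33.6 TPM) and was listed at 0 in every BP cell.

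Subplate neurons, the earliest-born cortical neurons, were sought with 8 genes. Nr4a2 (Nurr1) was detected in 24 of 63 cells and was higher by 2.33, and 1.58 without the highest cells. Ctgf reached 1 TPM in 1 cell and Tmem163 in 2, so their means came almost wholly from 1 cell each, at 153 and 518 TPM. Cplx3 and Nxph4 had means under 1 TPM, and Moxd1 was listed at 0 in every cell of both libraries. A count of 0 in 63 cells allows a share of up to 4.76%.

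Upper layer transcripts were abundant at both stages. Cux2, a homeodomain factor of the upper layers, ran from 0 over a median of 27.2 to 307 TPM at E16.5, and from 0 over 13.9 to 571 TPM at E18.5. It was detected in 49 of 63 and 53 of 70 cells, and its log2 difference was 0.40. Limch1, an actin-binding protein, had medians of 178 and 134 TPM, was detected in 46 and 55 cells and differed by 0.38. Both genes were common to the 2 stages, and neither differed by more than 1 log2 unit.

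Of 15 upper layer genes, 3 were higher at E16.5 and none was lower, with a median of 0.38. The 3 were Pou3f1 (1.22), Plxnd1 (2.00), a semaphorin receptor, and Inhba (3.08), an activin subunit. Plxnd1 and Inhba were found in 7 and 14 cells. Rorb, a nuclear receptor of layer 4, differed by -0.95 with all cells and by 1.03 without the near-empty ones, since 1 near-empty E18.5 cell listed it at 5772 TPM. Without those cells 4 of 15 upper layer genes were higher, as were 21.3% of all genes. Cux1 had a difference of 0.74 that became -0.01 without the highest cells, the E16.5 cell being at 5536 TPM. Unc5d, a netrin receptor of multipolar and upper layer cells, was the exception in detection, at 16 of 63 cells against 32 of 70. Its share was more than 20 points lower at E16.5, as were 0.195% of all genes, or 0.319% without the near-empty cells.

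Deep and upper layer factors met in the same E16.5 cells. Cux2 and Bcl11b were both at 1 TPM or more in 31 of 63 cells (49.2%, 36.4 to 62.1) and in 13 of 66 (19.7%, 10.9 to 31.3) at E18.5 without the near-empty cells. At 10 TPM the pair was present in 18 of 63 cells (28.6%) and in 7 of 66 (10.6%). Cux2 and Tbr1 were found together in 36 of 63 cells (57.1%, 44.0 to 69.5) and in 26 of 66 (39.4%, 27.6 to 52.2). Cux2 itself was found in 77.8% and 80.3% of these cells, Bcl11b in 66.7% and 28.8%, and Tbr1 in 74.6% and 48.5%. Each pair was about as common as the shares of its genes would give if they were independent. The stage gap in the pairs therefore repeats the gap in Bcl11b and Tbr1 alone. On log2 levels, Cux2 had Pearson correlations of -0.18 with Bcl11b and -0.05 with Tbr1 over the 63 cells, too weak in sparse data to count as a finding.

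The 2 deep layer factors Tbr1 and Bcl11b, which mark different layers in mature cortex, had correlated levels at E16.5. Both reached 1 TPM in 36 of 63 cells (57.1%, 44.0 to 69.5), against 10 of 66 (15.2%, 7.51 to 26.1) at E18.5 without the near-empty cells. Tbr1 itself was found in 74.6% and 48.5% of these cells, and Bcl11b in 66.7% and 28.8%. The stage gap in the joint counts therefore largely repeats the gap in the single genes. Their Pearson correlation was 0.45 over the 63 cells and 0.54 over the 55 without other markers, with Spearman values of 0.48 and 0.55. At E18.5 the Pearson values were 0.11 over 70 cells and 0.14 over the 63 without other markers, and the Spearman values 0.27 and 0.35. Over the 66 cells that were not near-empty, the Pearson value was 0.09 and the Spearman value 0.22. The points of each plot share a library and differ in genes detected. Sox5 and Bcl11b were found together in 37 cells at E16.5, with a correlation of 0.37. Fezf2 and Bcl11b were found together in 20 of 63 cells at E16.5 and in 5 of 70 at E18.5. Each of these genes was also found in fewer E18.5 cells on its own.

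**Figure D2:**
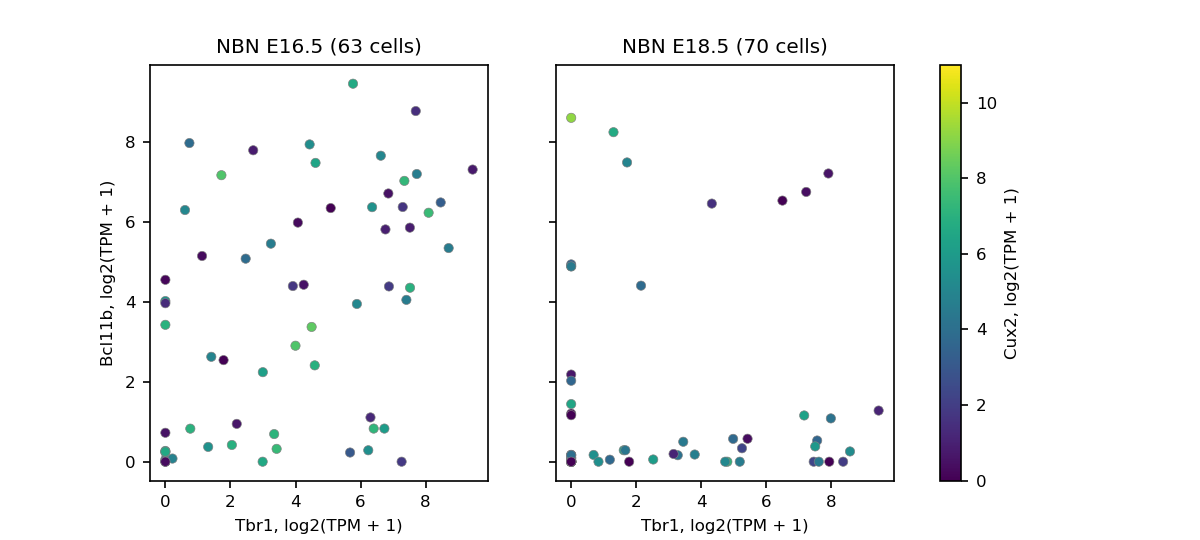
Each point is 1 cell, with log2(TPM + 1) of Tbr1 on the horizontal and of Bcl11b on the vertical axis, coloured by log2(TPM + 1) of Cux2. At E16.5, 36 of 63 cells have both genes at 1 TPM or more, and at E18.5 most cells lie along the axes.

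List averages were compared cell by cell. For each cell the mean log2(TPM + 1) of 18 deep layer genes was subtracted from that of 15 upper layer genes. The difference ran from -3.12 over a median of 1.80 to 5.43 at E16.5 (SD over cells 1.87) and from -2.64 over 2.45 to 4.87 at E18.5 (SD 1.46). Upper layer genes led in most cells of both stages. Deep layer genes led in 13 of 63 cells at E16.5 (20.6%) and in 2 of 66 (3.03%) at E18.5 without the near-empty cells. Without the cells holding other markers these were 10 of 55 and 1 of 63. The zero line is a cut through a continuous range of values, not a boundary between types.

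The deep and upper means were opposed within E16.5, with a Pearson correlation of -0.48 over 63 cells and -0.61 over the 55 without other markers. At E18.5 it was near 0, at 0.11 over 70 cells and -0.10 over the 66 that were not near-empty. The scatter of both means shows E16.5 cells spread along a loose falling band, from cells rich in upper genes to cells rich in deep genes. A median E16.5 cell had 4 of 18 deep genes and 7 of 15 upper genes at 10 TPM, and a median E18.5 cell had 2 and 7. At least 3 genes of both lists reached 10 TPM in 46 of 63 cells at E16.5 and in 29 of 70 at E18.5. The upper minus deep difference had a correlation of 0.15 with genes detected at E16.5.

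**Figure D3:**
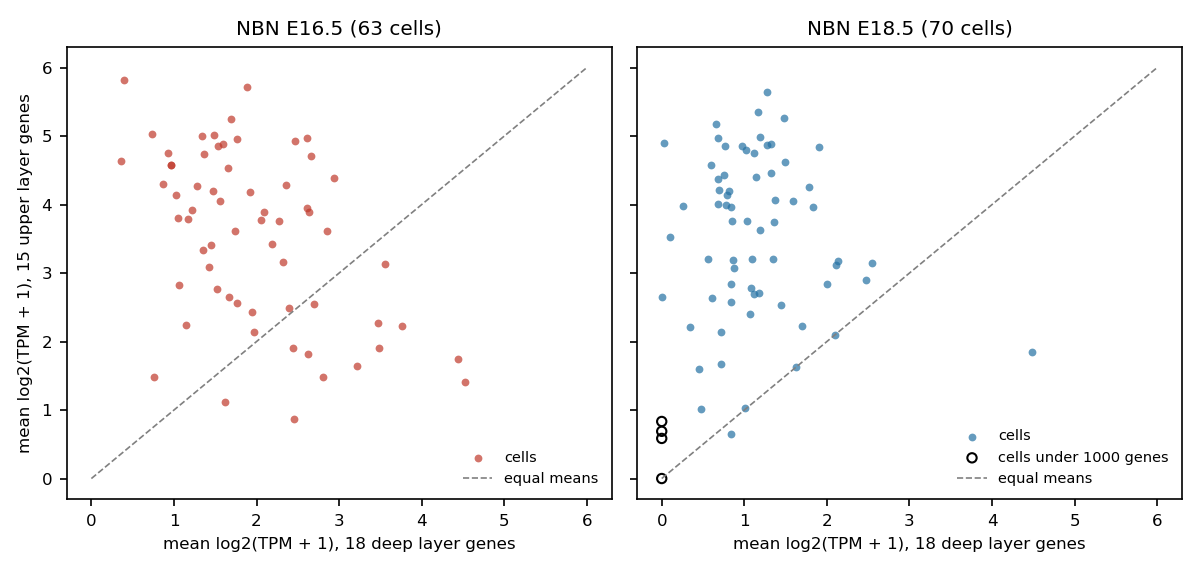
Each point is 1 cell, placed by its mean log2(TPM + 1) over 18 deep layer genes and 15 upper layer genes, with the dashed line at equal means. At E16.5, 13 of 63 cells fall below the line, and at E18.5, 2 of 70 do, while the open circles mark the 4 near-empty cells.

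Maturity was close between the stages on the same kind of score. The mean log2 level of 49 genes of axon growth, synapses, receptors and channels was set against that of 14 genes of migrating newborn neurons in each cell. Their difference had a median of -1.26 at E16.5 and -1.30 at E18.5, with SDs over cells of 0.83 and 0.85. It was below 0 in 59 of 63 cells and in 63 of 70. The libraries overlapped almost fully. The sign of the difference depends on which genes each list holds. The migrating list includes abundant tubulins, and the other list includes genes at or near 0, such as Slc12a5. Values below 0 are therefore no measure of maturity, and only the comparison between stages is read.

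Among genes of migrating newborn neurons, tubulins and their partners dominated. Tubb3, the neuronal beta tubulin, had a median of 4074 TPM at E16.5 and 4617 TPM at E18.5, and Tubb2b 488 and 615 TPM. Sox4 and Sox11, SoxC factors of early neuronal differentiation, had medians of 656 and 4.70 TPM at E16.5, and Sox4 was at 10 TPM or more in all 63 cells. Of 13 genes that passed the filter of 1 TPM, 3 were higher at E16.5 and 1 lower, with a median of 0.23, close to the 0.22 of all genes. The higher genes were Rnd2 (1.33), a small GTPase of radial migration found in 7 cells, Cdk5r1 (1.10), the activator of Cdk5, and Pafah1b1 (Lis1, 1.06). Sema3c was lower, at -1.60, in 11 and 8 cells, but at 0.11 when log2 values were averaged over cells. Pafah1b1 was under the mark without the near-empty cells (0.97) and at 0.26 without the highest cells. Nhlh1 was listed at 0 in both NBN libraries.

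Of 12 axon growth genes, 11 had a mean among the top 3 of 17 libraries, and 6 ranked first: Gap43, Stmn2, Basp1, Map1b, Nefm and L1cam. Of 13279 genes, 25.9% were among the top 3 in this library and 9.27% ranked first. Map1b, a microtubule protein of growing axons, had a median of 2447 and a highest value of 4922 TPM at E16.5, and all 63 cells were at 10 TPM or more. At E18.5 it had a median of 1571 and a highest value of 4787 TPM. Stmn2, a tubulin regulator of growth cones, had medians of 2127 and 1376 TPM and was detected in 59 cells of each library. The ranges overlap over most of their length, and the log2 differences of 0.55 and 0.51 were under 1 unit. Of the 12 genes, 2 were higher than at E18.5, Nefl (1.93, in 11 cells) and the adhesion molecule L1cam (1.26, in 53 cells), and the list median was 0.53.

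Guidance receptors were mixed. Dcc, a netrin receptor, was higher at E16.5 by 1.18, while the semaphorin receptor subunits Nrp1 and Plxna4 were lower, at -1.09 and -1.07. Without the cells holding other markers, the Dcc value was 0.70. Of the 11 receptors, 8 had a lower mean at E16.5 and the median was -0.27, against 0.22 for all genes. Robo1 and Epha5 had the highest means of the 17 libraries, at 58.5 and 153 TPM.

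Synaptic genes were present but uneven. Snap25, the membrane fusion protein, was detected in 58 of 63 cells at a median of 279.7 TPM, and Syt4 in 50 cells at 353 TPM. Syt1, the fast calcium sensor, was detected in 44 cells at E16.5 and in 31 of 70 at E18.5, at medians of 18.3 and 0 TPM. In contrast, the mature vesicle protein Syp was found in 6 cells and the postsynaptic Nrgn in 2. Of 17 passing genes, 4 were higher at E16.5 (Syp, Syn2, Sv2b and Nlgn1) and 1 lower, with a median of 0.13. That is close to the 23% of all genes that were higher, so the list did not stand out from the background. Of the 4, Syp, Syn2 and Sv2b were found in 5 to 11 of 63 cells. Nlgn1, a postsynaptic adhesion molecule, was found in 28 cells and differed by 1.25.

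Among receptor and channel genes, Gria2 had the highest mean, at 442 TPM. Gria2, the AMPA receptor subunit that limits calcium entry, was detected in 62 cells at a median of 325 TPM, and Grin2b, the NMDA subunit of immature neurons, in 59 cells at 65.2 TPM. Grin2a, the subunit that gains ground later, reached 1 TPM in 1 cell. The chloride exporter Slc12a5 (Kcc2), which makes GABA inhibitory in mature neurons, was listed at 0 in all cells, while the importer Slc12a2 was found in 23. Of 17 passing genes, 2 were higher (Grm5, 1.59, and Cacna1e, 1.48) and 3 lower (Gria3, Gabra2 and Slc12a2, from -1.42 to -1.13), with a median of 0.17. Of those, the Gria3 value rested on 1 E18.5 cell at 3187 TPM and was 0.67 without the highest cells. Without the cells holding other markers, 5 were higher and 2 lower, with Gabra2 and Slc12a2 at -0.95 and -0.74.

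**Figure D4:**
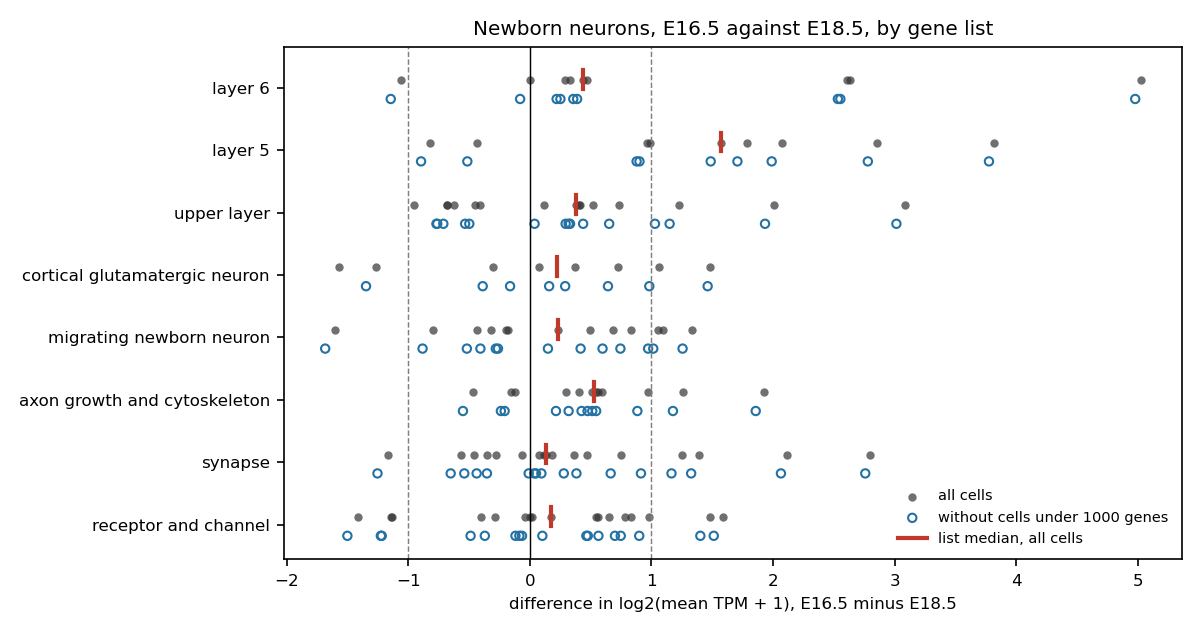
Each point is 1 gene of a list, placed by the difference in log2(mean TPM + 1), E16.5 minus E18.5, with all cells (filled) or without cells under 1000 genes (open), and dashed lines mark 1 log2 unit. Layer 5 genes have the rightmost list median (1.57), and the other lists have medians between 0.13 and 0.53.

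Against basal progenitors of the same stage, axon growth genes had the highest median of the neuronal and layer lists named here. Of 13237 genes, 26.2% were higher in NBN by more than 1 log2 unit and 14.8% lower, with a median of 0.31. Of 12 axon growth genes, 10 were higher and none lower, with a median of 1.64. Of 17 receptor and channel genes, 8 were higher and none lower, and of 17 synapse genes, 7 were higher and 1 lower. Stmn2 had a median of 2127 TPM in NBN and 3.98 TPM in BP, and Mef2c 331 and 0 TPM. Of 9 layer 6 genes, 5 were higher than in BP and 1 lower, with a median of 1.36. Of 9 layer 5 genes, 5 were higher and 1 lower, or 3 and 1 without the near-empty BP cells, with a median of 1.11. Averaging log2 values over cells brought these medians to 0.48 and 0.19, against 0.46 for all genes. The upper layer list had a median more than 1 log2 unit above BP when the highest cell of each gene was left out, against 0.34 for all genes. Of the upper layer genes, Limch1 was at a mean of 310.4 TPM in NBN and 68.1 TPM in BP, a difference of 2.17. Cux2 did not differ in this way, at means of 56.1 TPM in NBN and 55.0 TPM in BP. It was at 88.8 TPM in BP at E18.5 and 88.2 TPM in BP at P0. Cux2 transcripts were thus shared with the progenitors, and Cux2 alone does not mark upper layer neurons here.

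Progenitor genes showed the opposite order. Of 8 basal progenitor genes, 6 were lower than in BP and none higher, with a median of -1.84. Eomes, whose reporter was used for the sort, was detected in 14 of 63 NBN cells, with a highest value of 385 TPM, and in 64 of 89 BP cells, with means of 13.3 and 230 TPM. Sstr2, a somatostatin receptor, had means of 5.26 TPM in NBN at E16.5, 255 TPM in BP and 138 TPM in NBN at E18.5. Against E18.5, Eomes differed by -3.87 with all cells and by -1.27 without the near-empty ones, 1 of which listed it at 12342 TPM, and by 0.34 when log2 values were averaged over cells. Of migrating neuron genes, Neurod1, Nhlh1, Nhlh2, Rnd2, Sema3c and Igfbpl1 were lower in NBN than in BP, 6 of 14. Others went the other way, as Cdk5r1, Pafah1b1 and Marcksl1 had their highest mean of the 17 libraries in NBN at E16.5. When log2 values were averaged over cells, the median of this list against BP was above that of all genes.

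At the mark used here, cell cycle transcripts were found in more E16.5 than E18.5 neurons. At least 3 of 12 G1/S genes reached 10 TPM in 45 of 63 cells at E16.5 (71.4%, 58.7 to 82.1) and in 34 of 70 at E18.5 (48.6%, 36.4 to 60.8). For 15 G2/M genes these were 15 of 63 (23.8%, 14.0 to 36.2) and 3 of 70 (4.29%, 0.893 to 12.0). Of 11 passing G1/S genes, 6 were higher at E16.5 and 1 lower, and of 12 passing G2/M genes, 7 were higher and 3 lower. Over all genes, 23% were higher and 14.9% lower. Several members were at low, nearly even levels in almost every cell, such as Ube2c in 61 of 63 cells at a median of 23.2 TPM and Birc5 in 62 at 15.2 TPM. Both medians are above 10 TPM, so these genes alone bring many E16.5 cells near the mark of 3. A median cell had 2 G2/M genes at 10 TPM at E16.5 and 1 at E18.5. The E18.5 shares also keep the 4 near-empty cells. Defining genes of division were rarer: Mki67 reached 10 TPM in 5 cells, Top2a in 5 and Ccnb1 in 4. E16.5 cells also had more genes per cell, and the part of that in these shares was not tested.

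The largest single axis of variation between E16.5 cells, a small part of the whole, followed the number of genes detected. The first principal component over 6916 genes held 9.51% of the variance and had a correlation of 0.76 with genes per cell and of -0.59 with the percent of mitochondrial TPM, over 63 cells. Its positive end was led by housekeeping genes, among them Tceb2, H2afz, Psmb6 and Rpl8. Its negative end was led by Sox5 and Hs3st4 and also held Tle4, 3 genes of the layer 6 list. Correlations of these with the component were -0.36, -0.37 and -0.31. Genes outside the layer lists at that end had stronger ones, such as Gab3 (-0.54), Rhox8 (-0.50) and Cd209c (-0.44). Loadings were positive for 76.5% of genes. The negative ones were smaller, at -0.018 for Sox5 against 0.050 for Tceb2, so this end is not read as a layer 6 group. The upper minus deep difference had a correlation of 0.35 with it.

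Most genes were patchy. Of 8737 genes at a mean of 10 TPM or more, 187 were at 1 TPM or more in every cell, and 4582 were found in 25 to 75% of cells. The SD of log2 levels over cells had a median of 2.53. It was largest for Ldhb, a lactate dehydrogenase subunit (4.44, in 43 cells), Eif1b, Kars, Snap47 and Trp53. Lmo3, a LIM-only protein, was also in this top group, in 24 cells at up to 3982 TPM. At the other end, chosen after the values were seen, Thg1l (0.69), Frmpd3, Mrpl19 and Actb (0.80) were in every cell. The most abundant transcripts were Malat1 at a mean of 24054 TPM, then Tuba1a, Stmn1 and Actb. Dpysl2 (Crmp2), a tubulin-binding protein of axon specification, had the ninth place in mean level at 5508 TPM, its highest value in the 17 libraries.

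Across the series the E16.5 neurons ranked first for the upper layer genes Cux1, Limch1 and Plxnd1 and for the layer 6 genes Tle4, Zfpm2, Hs3st4 and Ntsr1. Tbr1 and Bcl11b each had the third highest mean of 17, below BP at E14.5 at 133 and 119 TPM. Sox5 had the second highest, also below BP at E14.5. Several first places rested on 1 cell. With the highest cell of every library left out, Cux1 fell to the fourth place, below BP at E18.5 at 117 TPM, and Zfpm2 to the second, below BP at E14.5 at 13.6 TPM. Plxnd1 and Ntsr1 also came second, while Limch1, Tle4 and Hs3st4 stayed first. In later NBN, Bcl11b was at 17.4 TPM at P1 and 1.12 TPM at P3, and Sox5 at 17.2 and 7.74 TPM. Each stage is 1 library, so these orders are descriptions.

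**Figure D5:**
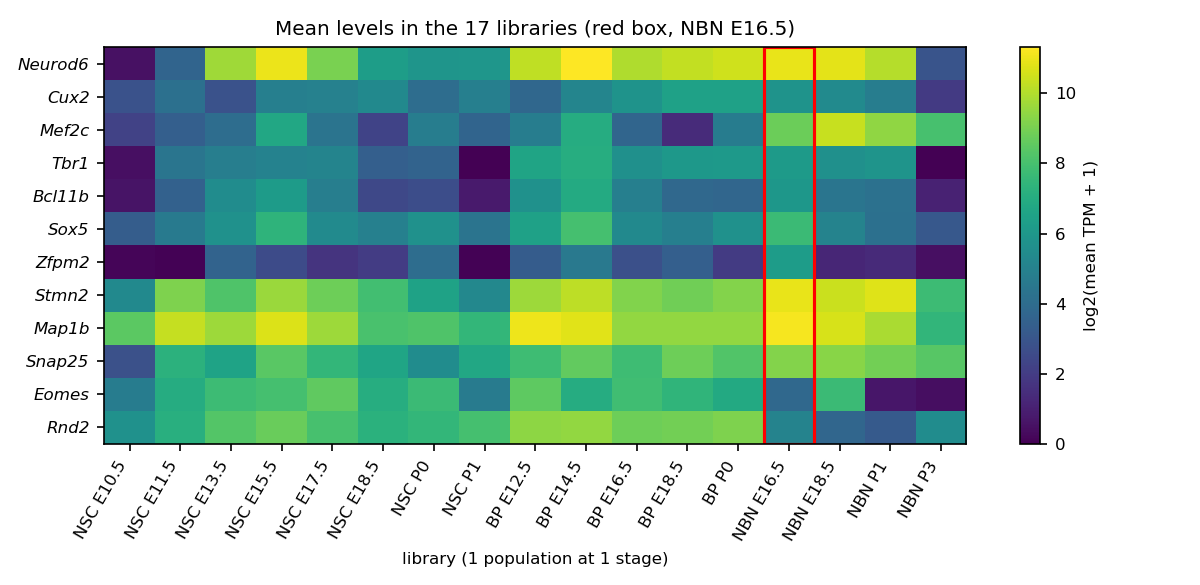
Colour gives log2(mean TPM + 1) for 12 genes (rows) in the 17 libraries (columns, 1 population at 1 stage each), with neural stem cells (NSC), BP and NBN side by side and NBN at E16.5 boxed. Zfpm2 (through 1 cell), Stmn2 and Map1b are brightest in the box, and Eomes is darker there than in BP.

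Beyond the lists, the 12 largest higher genes were each found in 16 to 26 of 63 cells, a range whose lower end was set by the filter. The 12 largest lower genes were filtered on E18.5 cells instead, so their E16.5 cell counts are not comparable with these. Names were taken by size among genes with a mean of 10 TPM or more and detection in 25% or more of cells, both in the higher library. The difference also had to stay past 1 log2 unit without the highest cell of each library. Values without the highest cells, and cell counts in the higher library, are thus no separate check on these genes. The higher genes included Igfbp3, an insulin-like growth factor binding protein found in 19 of 63 and 2 of 70 cells, with a difference of 4.29 and 4.14 without the highest cells. Lrrtm3, a synaptic adhesion molecule, was found in 17 and 9 cells and differed by 4.07. Dpy19l3 was found in 24 and 6 cells and differed by 3.73. Others rested on 1 cell: Pde1a, a calcium-dependent phosphodiesterase, differed by 4.49 with 1 cell at 14408 TPM and by 2.06 without it, and Pcsk2, a prohormone convertase, by 4.14 and 2.34. Cdc25c, a mitotic phosphatase, had 1 cell at 4346 TPM and differed by 5.83 and 3.22.

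Of the lower genes, Iqsec3 (-4.35), an exchange factor of inhibitory synapses, Tmem230 (-3.73) and Taf1a (-3.61) differed as much without the near-empty cells, at -4.43, -3.82 and -3.70. Tmem230 was at -2.21 without the highest cells. Without the near-empty cells, Fndc5, Ndufaf5, Slmo1 and Clk3 became less negative, at values between -1.93 and -1.01, Pde6a, Tbata and Plau came under 1 unit, at -0.75, -0.64 and -0.38, and Dusp23 and Ahdc1 turned to 0.85 and 0.13. Against BP, the neurons had more Ldb2 (6.94), a LIM domain binding cofactor found in 37 of 63 and 4 of 89 cells, Ndrg1 (6.50), Fam19a2 (6.00) and Lrfn5 (5.50), and Npy, a neuropeptide, was listed at 0 in every BP cell. They had less Rmst (-5.82), a neurogenic noncoding RNA, St18 (-4.62), Rasgef1b (-4.33) and Kcnip3 (-4.23).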

How the data were processed

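Dorsal cortex cells were measured by single-cell RNA-seq. The authors deposited TPM for 23078 genes per cell, and the submitters' processing notes list kallisto 0.43.0 with the builds GRCm38.p2 and mm10. All cells were kept. In some near-empty cells the deposited values are rounded to whole numbers, and this score was used on the TPM scale. Depth is unknown, and precision rests on the number of cells. A library value was log2(mean TPM over cells + 1). Genes with a mean of both library means of at least 1 TPM were compared, and a difference past 1 log2 unit was counted. No test was made, since each group is 1 library. Cells of 1 library share their source. Shares of cells have exact Clopper-Pearson 95% intervals. Doublets were not called. Of the 23078 IDs, 22361 were found in GENCODE M21. Promoters came from the RefSeq table, in which Zfpm2 had no entry. Some genes of the lists are counted in them but not reported here by name. Members, lists and the comparison were chosen with earlier results of these data known. Genes outside the lists were named by size, 12 per direction against E18.5 and 5 against BP. They had a mean of 10 TPM and were in 25% of cells in the higher library. They also stayed past 1 log2 unit in the same direction without the highest cell of each library. The code was tested on simulated data. Python 3.11.15, NumPy 2.4.6, pandas 2.3.3, SciPy 1.17.1 and Matplotlib 3.10.9 were used. Alternatives changed the pseudocount, filter, averaging, scaling, fold, detection level and cells kept. Leaving out cells under 1000 genes in the comparison with BP and in the scores, and cells with markers of another type in the scores, and ranking without the highest cells, was chosen after seeing the data.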

Additional observations from a re-analysis of the deposited data

How the results depend on the processing

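No paired analysis was possible because the replicate numbers of the labels count cells and no test was made. Against E18.5, 3060 genes were higher and 1982 lower. These were 1102 and 859 with a pseudocount of 10, 1552 and 1095 with a filter of 10 TPM, and 998 and 705 past 2 log2 units. With the mean of log2 over cells, 2156 were higher, 840 of them among the 3060, and 34 lower, 31 of them among the 1982. Quantile normalization gave 2481 and 2382 and moved the median of all genes to 0.07. Against BP, 3471 were higher and 1963 lower, 1447 and 842 with a pseudocount of 10, and 1249 and 770 past 2 log2 units. With the mean of log2, 2938 were higher and 82 lower, 72 of these among the 1963. That mean gave layer 5 genes a median of 0.64 against E18.5 and 0.19 against BP, layer 6 genes 0.48 against BP, and glutamatergic neuron genes 0.98 and 1.57. Against BP it gave migrating genes 0.89, axon growth genes 2.96 and synapse genes 1.48. Upper layer genes had 1.60 against BP without the highest cells. At 10 TPM, 28.6% of cells held Cux2 with Bcl11b, 28.6% Cux2 with Tbr1 and 38.1% Tbr1 with Bcl11b. The correlation of deep and upper means was -0.61 at E16.5 without cells holding other markers and -0.10 at E18.5 without the near-empty cells. Signs turned with the mean of log2 for Rprm (0.16), Mef2c (0.91), Eomes (0.34), Sema3c (0.11), Gria3 (0.023), Mki67 (0.18), Dusp23 (1.31) and Ahdc1 (0.085). They turned without the highest cells for Gria3 (0.67) and Ctgf (-0.0053), without the near-empty cells for Dusp23 (0.85) and Ahdc1 (0.13), and without cells holding other markers for Mfap4 (-1.96). The cause was not tested. With 63 and 70 cells and unknown depth, a gene missed in a cell cannot be told apart from one not expressed there.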

Other observations

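A group of genes was found at low, even levels in nearly every E16.5 cell, some of them known as markers of other cells. Dlx6, an interneuron factor, was at 1 TPM or more in 60 of 63 cells at a median of 5.57 TPM, and Gad2 in 59. Dusp23 was found in 62 cells at a median of 85.2 TPM, against 24.1 TPM at E18.5. Tbata, a thymus and testis gene, was found in 62 cells at a median of 15.2 TPM. Pax6, a radial glia factor, was at 10 TPM or more in 61 of 63 cells at a median of 26.2 TPM, against 47 of 70 cells at E18.5, while Hes5 was listed at 0 and Sox2 was found in 3 cells. Detection at 1 TPM of such genes was not used to name cell types.

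Immediate early genes, which respond to activity and to tissue dissociation, were uneven. Fos was detected in 33 of 63 cells at E16.5 and in 48 of 70 at E18.5, at medians of 2.43 and 26.7 TPM. Its share of cells was more than 20 points lower at E16.5 without the near-empty cells, as were 0.319% of genes. Junb (2.62) and Ier2 (1.58) had higher means at E16.5, in 5 and 9 cells, and Nr4a1 a lower one (-3.39).

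The 13 genes of the mitochondrial genome had a median difference of -0.48 against E18.5, and 83 ribosomal protein genes one of 0.12. The median of all genes was 0.22. Mitochondrial genes held a median of 5.58% of a cell's TPM at E16.5 and 7.48% at E18.5.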
